A study of Mus musculus with 16 samples.

Results

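The clustered protocadherins are cell-surface adhesion molecules encoded by the alpha, beta and gamma gene clusters, which lie next to each other in the genome. Their genes were taken here by symbol, as every gene named Pcdha, Pcdhb or Pcdhg followed by a number, a further letter or C1 to C5. A probe could be named, by its RefSeq accession, for 35 of the 58 such genes in the RefSeq table used for naming. These were 7 of 14 in the alpha cluster, 22 of 22 in the beta cluster and 6 of 22 in the gamma cluster. They were read among 20124 named genes with a probe. The other 23 had no probe named in this way and were not analysed here.

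Each alternate isoform of the alpha and gamma clusters starts with its own variable exon and promoter, which is spliced to constant exons shared by the whole cluster, whereas each beta gene stands alone. Neurons are known to use a small and partly random set of alternate isoforms per cell, a choice in which the insulator protein CTCF, cohesin and DNA methylation take part, while the C-type isoforms are used more evenly. The proteins bind their own kind across membranes, and in retinal and cerebellar neurons they let sister dendrites of 1 cell avoid each other.

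ICR mice gave the cells at postnatal day 3 (P3) or postnatal day 6 (P6), and the cells were mitral cells, which carry the output of the olfactory bulb. Plasmids had been introduced by in utero electroporation on embryonic day 12, carrying EYFP by itself in control cells and EYFP together with the inward rectifier potassium channel Kir2.1 in the others, each gene driven by the CAG promoter, which is active in most cell types. The series names the Kir2.1 cells activity-silenced. All 4 groups therefore carried EYFP and had undergone electroporation, and they differed in age and in Kir2.1. Each group held 4 arrays, and each array held the cDNA of 10 hand-picked cells, amplified by 30 cycles of PCR per cell and pooled. The number of animals was not stated, so p-values measure the spread between pools, part of which may be technical. In such a pool, fewer cells that use a gene and less of its RNA per cell cannot be told apart.

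Between 48.9% and 56.2% of the named genes were well above background in a pool, by the flag of the scanner software. Pools within a group correlated across features with group medians of 0.803 to 0.874. Cdhr1, the mitral and tufted cell gene by which cells had been kept, was detected in 16 of 16 pools, as were the mitral and tufted cell transcription factors Tbx21 and Eomes. The probe of Kcnj2, the mouse gene of Kir2.1, was well above background in 0 of 16 pools, so this probe gave no check of the Kir2.1 label. The P3 arrays lay on 1 slide and the P6 arrays on another, with control and Kir2.1 pools on different rows, so age and slide, and treatment and row, cannot be told apart.

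The question addressed by detection was which clustered protocadherins these small pools held. A gene is called detected in a pool where its probe, or the brightest of its probes, was well above background. A pool of 10 cells held between 10 and 17 of the 35 genes, with a median of 12.5. Across all 16 pools, 26 genes were detected at least once. Of the 35 genes, 4 were detected in every pool, namely Pcdha8, Pcdhac2, Pcdhb12 and Pcdhga9. A further 9 were detected in none, among them Pcdhac1, Pcdhb2, Pcdhb5, Pcdhb8 and Pcdhb11, for which only a bound at background is known.

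The remaining 22 genes were detected in some pools and not in others, which is 62.9% of the clustered protocadherins against 43.7% of all named genes. Detection in 4 to 12 of the 16 pools was found for 40% of the clustered protocadherins and 17.1% of the named genes. Detection in all pools was found for 11.4% and 32.1%, and in no pool for 25.7% and 24.2%. These shares describe the pools, and the genes were not matched to others of like abundance.

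**Figure D1:**
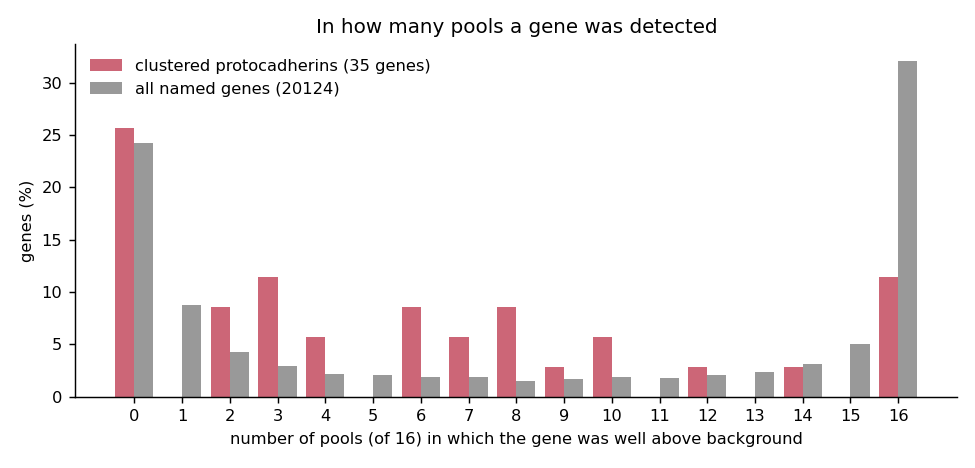
Percent of genes (vertical axis) by the number of the 16 pools in which the gene was well above background (horizontal axis), for the 35 clustered protocadherins (red) and all 20124 named genes (grey). Named genes pile up at 0 and 16 pools, with 32.1% in all 16, whereas 40% of the clustered protocadherins lie between 4 and 12 pools.

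The beta cluster, measured in full, held 16 of the 22 genes detected in some pools, and 22 of the 35 genes measured. Pools held between 4 and 10 of its 22 genes, with a median of 8. Of the 22, Pcdhb12 alone was detected in all 16 pools, 5 were detected in none and 16 (72.7%) in some. No 2 pools held the same beta genes, so the 16 pools gave 16 distinct sets. With 16 genes each detected in some pools, distinct sets are close to certain, so this count says little about these genes. Sets of other named genes were not compared in this way. Between pools of the same group, the shared beta genes made up 20% to 66.7% of the genes detected in either pool, with a median of 43% over 24 pairs. Between pools of different groups this was 9.09% to 70%, with a median of 38.5% over 96 pairs. The pairs share pools and were not tested, and the ranges of both kinds overlap over most of their length.

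In the alpha cluster, pools held 2 to 4 of the 7 genes, Pcdha8 and Pcdhac2 being in all of them. Of the 7 alpha genes, 57.1% were detected in some pools, against 72.7% of the beta and 33.3% of the gamma genes. Detection in 4 to 12 pools was found for 42.9% of the alpha, 45.5% of the beta and 16.7% of the gamma genes. The gamma cluster showed 1 to 3 of 6 genes, of which Pcdhga9 was detected throughout. The groups overlapped in all 3 clusters. P3 control pools held 11 to 14 clustered protocadherins, P3 Kir2.1 pools 11 to 15 and P6 control pools 11 to 15. In P6 Kir2.1, pools 1, 2 and 3 held 10 each and pool 4 held 17. Pool 4 was also the one of these with the most named genes detected, 55.6% against 48.9% to 53.4% in the other P6 Kir2.1 pools.

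**Figure D2:**
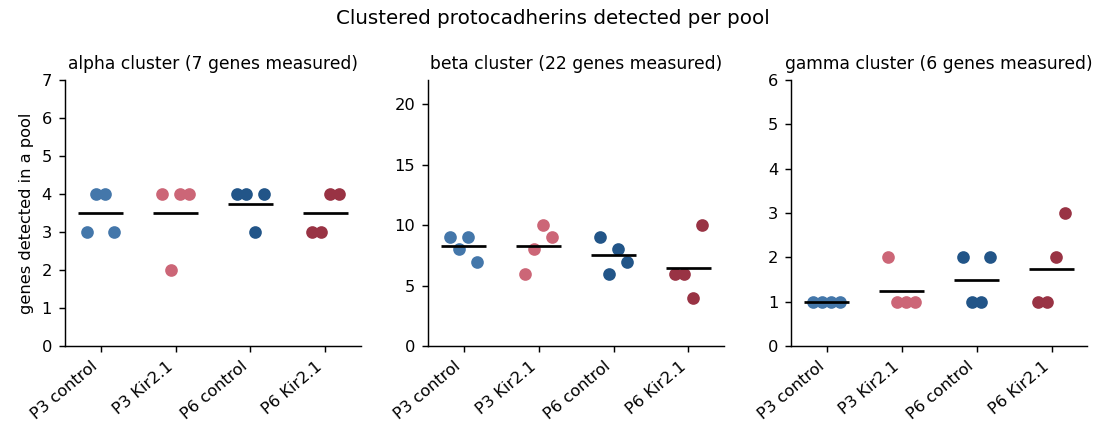
Number of genes well above background in each pool (points) for the alpha, beta and gamma clusters, by group, with the vertical axis running to the number of genes measured and the line at the group mean. Beta counts run from 4 to 10 of 22 and overlap between all 4 groups, and the P6 Kir2.1 group holds both the lowest and a highest beta count.

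Signals are given below as log2 values on a scale set by each array's 75th percentile, so that 0 is the signal at that percentile. Of the 35 genes, 19 passed the filter for testing (well above background on at least 4 arrays), 5 alpha, 12 beta and 2 gamma genes. The SD between pools of a group, pooled over the 4 groups, had a median of 2.11 in these 19, against 1.11 in all named genes tested and 0.91 in all 21070 features tested. Among genes detected in 4 to 12 pools the medians were closer, 2.35 in 14 clustered protocadherins and 2.07 in 3449 named genes.

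**Figure D3:**
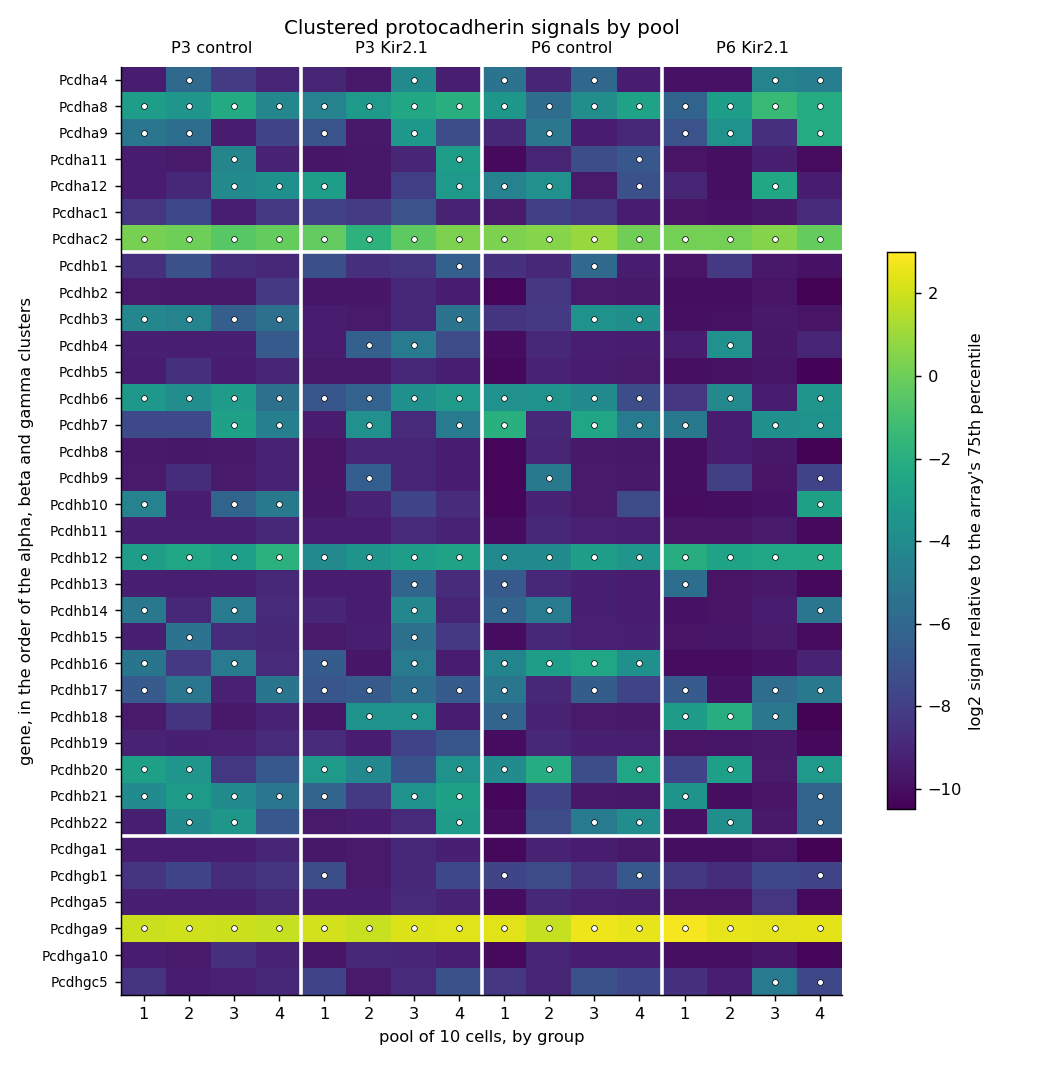
Log2 signal relative to the 75th percentile of the array (colour) for the 35 clustered protocadherins (rows, in cluster order) in the 16 pools (columns, by group), with a white dot where the gene was well above background. Pcdha8, Pcdhac2, Pcdhb12 and Pcdhga9 carry a dot in every pool, and most other beta rows alternate between bright and dark pools of the same group.

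The C-type isoforms measured were Pcdhac1, Pcdhac2 and Pcdhgc5. At P3, Pcdhac2 had -0.11 ± 0.32 (SD, n = 4) in control and -0.51 ± 0.91 in Kir2.1 cells, and at P6 it had 0.48 ± 0.36 and 0.17 ± 0.28. Its signals overlapped between control and Kir2.1 at both ages. Pcdhgc5 was detected in 2 of 16 pools, both of them P6 Kir2.1 pools, at -7.64 ± 1.91 in that group, and it did not pass the filter for testing. Pcdhac1 was detected in none.

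Pcdhga9 and Pcdha8 are alternate isoforms, and each was detected in all pools. Pcdhga9 had the smallest spread between pools among the 19 genes tested, with a pooled SD of 0.25, followed by Pcdhb12 with 0.48 and Pcdhac2 with 0.53. The signal of Pcdhga9 was 1.92 ± 0.10 in control and 2.14 ± 0.23 in Kir2.1 cells at P3, and 2.35 ± 0.38 and 2.55 ± 0.19 at P6. Pcdha8 varied more, with a pooled SD of 1.40 and signals from -6.13 to -1.37.

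These 3 genes, Pcdha8, Pcdhac2 and Pcdhga9, were the ones with a second probe, and in each the probes disagreed. The second probe of Pcdha8 was well above background in 3 pools, that of Pcdhac2 in 6 and that of Pcdhga9 in 7, against 16 for each first probe. Which exon a probe reads is not given in the sources used here. Since alpha and gamma transcripts share their constant exons, a probe there would read every isoform of its cluster, and whether the first probes do so was not tested. The steady detection of Pcdha8, Pcdhac2 and Pcdhga9 is therefore a statement about those probes, not about 1 isoform. Beta genes share no constant exon, yet they are alike in sequence, and reads across paralogs were not tested either.

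The first comparison between groups was Kir2.1 against control cells, which addresses whether silencing changed these genes. Each difference is from limma, fitted on all 16 arrays, with Benjamini-Hochberg adjustment over 21070 features and a threshold of 0.05. At P6, Pcdhb16, a beta cluster gene, fell in Kir2.1 cells. Its signals in the P6 control pools were -4.39, -3.00, -2.53 and -3.75, and in the P6 Kir2.1 pools -10.06, -10.04, -9.84 and -9.18. It was detected in 4 of 4 control pools and in 0 of 4 Kir2.1 pools, and the groups did not overlap. The difference was -6.36 (SE 1.07, adjusted p = 0.0124), from -3.42 ± 0.82 to -9.78 ± 0.41. Because the Kir2.1 pools were not well above background, the fold is a bound, at least 22.6-fold lower, which sets the control mean against the lowest detectable signal of each Kir2.1 array or the probe's own signal where that was higher.

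Pcdhb16 was the single clustered protocadherin called at P6, 1 of 19 tested, in a comparison where 0.892% of all features were called lower. The call held in all 29 alternative settings, including without any 1 of the 16 pools, with adjusted p between 0.00523 and 0.0477. The size depended on how background was treated, at -2.18 (SE 0.35) after a normexp background correction and -4.50 (SE 0.64) with signals floored at background.

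At P3, Pcdhb16 was detected in 2 of 4 pools of each group. Its signals were -5.24, -8.27, -4.98 and -8.83 in control and -6.57, -9.70, -4.89 and -9.45 in Kir2.1. Both groups held 2 brighter and 2 dimmer pools and overlapped, with a difference of -0.82 (SE 1.07, adjusted p = 0.941). The interaction, which tests whether the Kir2.1 difference was unequal at the 2 ages, was -5.54 (SE 1.52, adjusted p = 0.184). A difference between the ages was thus not shown by that test. The mean over both ages was -3.59 (SE 0.76, adjusted p = 0.0498). Pcdhb16 was again the single clustered protocadherin called, where 0.29% of all features were called lower. That call was lost without any 1 of 15 of the 16 pools, P3 Kir2.1 pool 3 being the exception, with adjusted p up to 0.0987.

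Markers of interneurons and microglia were also lower in the P6 Kir2.1 pools. Over 18 interneuron markers, the summed linear signal was 4.61 to 11.7 in P6 control pools and 1.4 to 3.65 in P6 Kir2.1 pools, with 13 to 16 and 9 to 13 of the 18 detected. Of 15 tested, 14 were lower in P6 Kir2.1 cells. The opioid precursor gene Penk passed the test (-6.32, SE 1.26, adjusted p = 0.0269), where 0.892% of all features were called lower. The call of Penk was lost without P6 control pool 1, 2 or 4 or P6 Kir2.1 pool 2, 3 or 4, and in the P6 arrays alone, with adjusted p up to 0.187. The defining marker Gad1, an enzyme of GABA synthesis, was at -1.67 ± 1.60 in P6 control with detection in 4 of 4 pools, and at -6.11 ± 2.99 in P6 Kir2.1 with detection in 3 of 4. At P3 the interneuron sums overlapped, at 1.96 to 2.58 in control and 1.79 to 2.93 in Kir2.1, with 6 of 15 genes higher and 9 lower. Gad1 was higher in Kir2.1 cells at that age, at -7.90 ± 1.86 in control and -5.15 ± 2.30 in Kir2.1. The part of interneuron RNA in the fall of Pcdhb16 was not tested.

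Microglia markers summed to 15.2 to 20.9 in P6 control and 10.3 to 12.7 in P6 Kir2.1, and all 6 tested were lower there with 0 past the test. At P3 the microglia sums lay apart in the opposite direction, at 7.55 to 8.77 in control and 9.79 to 12.7 in Kir2.1. Of the 6 genes, 3 were higher and 3 lower at P3. Mitral and tufted cell markers went the other way, with sums of 11.5 to 16.7 in P6 control and 17.9 to 27.2 in P6 Kir2.1. Of these, Reln, an extracellular protein secreted by mitral cells, rose (3.89, SE 0.74, adjusted p = 0.0208) and Nts, a neuropeptide gene, fell (-1.80, SE 0.40, adjusted p = 0.0412). Over all features at P6, 182 of 21070 were called higher and 188 lower. The call of Reln was lost in 5 of 29 alternatives, among them the fits without P6 control pool 4 or P6 Kir2.1 pool 2 or 4, with adjusted p up to 0.215. That of Nts was lost in 19 of 29, including each P3 control pool left out, P3 Kir2.1 pool 1 or 2, P6 control pool 1, 2 or 4 and P6 Kir2.1 pool 1, 3 or 4, with adjusted p up to 0.242. The sums of the astrocyte, oligodendrocyte, ensheathing cell and vascular markers overlapped between P6 control (14.9 to 17.9, 1.62 to 7.85, 16.7 to 22.1 and 0.975 to 2.36) and P6 Kir2.1 (7.31 to 22.9, 1.25 to 6.03, 8.56 to 35.2 and 0.766 to 6.06). So did those of the olfactory sensory neuron markers, at 7.53 to 11.1 and 6.72 to 7.82. The part of these cells was not tested.

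No other clustered protocadherin passed the test in a Kir2.1 comparison. Pcdhb3 had the next lowest p over both ages. It was detected in 4 of 4 P3 control pools at -4.26, -4.44, -6.42 and -5.50, and in 1 of 4 P3 Kir2.1 pools, at -9.45, -9.53, -9.00 and -5.34. At P6 it was detected in 2 of 4 control pools, at -8.47, -8.28, -3.63 and -3.79, and in 0 of 4 Kir2.1 pools, at -9.94, -9.89, -9.60 and -9.78. The P3 groups overlapped through Kir2.1 pool 4, and the P6 groups did not.

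The Kir2.1 difference of Pcdhb3 was -3.18 (SE 1.18, adjusted p = 0.623) at P3 and -3.76 (SE 1.18, adjusted p = 0.117) at P6. No fold is given, since P6 signals of Pcdhb3 at background stand in both groups. Its mean over both ages was -3.47 (SE 0.83, adjusted p = 0.0787). Without P3 Kir2.1 pool 4, the mean passed the test (-3.97, adjusted p = 0.0433), and in the other 26 alternatives it did not. Pcdhb16 and Pcdhb3 were thus the 2 genes of the 19 with every P6 Kir2.1 pool below every P6 control pool, although 2 of the control pools of Pcdhb3 were themselves at background.

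**Figure D4:**
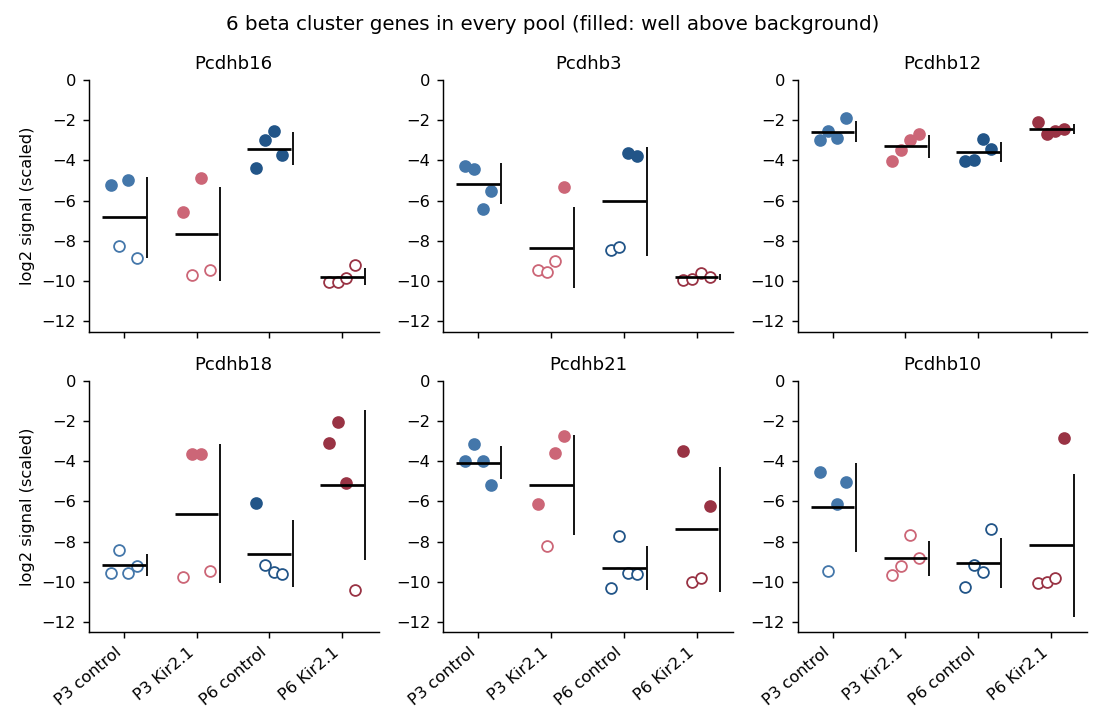
Log2 signal relative to the 75th percentile of the array in each pool (points, filled where well above background) for 6 beta cluster genes, by group, with the group mean (horizontal line) and the SD (vertical line). Pcdhb16 sits between -4.39 and -2.53 in the P6 control pools and between -10.06 and -9.18 in the P6 Kir2.1 pools, while Pcdhb12 is filled in all 16 pools.

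Pcdhb12, the beta gene detected in every pool, lay between -4.02 and -1.88 throughout. At P6 its signals were -4.02, -3.97, -2.93 and -3.44 in control and -2.11, -2.67, -2.54 and -2.47 in Kir2.1. Every Kir2.1 pool stood above every control pool, by 1.14 between the means (SE 0.35), which did not pass the test (adjusted p = 0.113). At P3 the difference was -0.73 (SE 0.35, adjusted p = 0.789), with overlapping groups. The interaction of Pcdhb12 was 1.87 (SE 0.50, adjusted p = 0.172).

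Pcdhb18 was detected in 0 of 4 P3 control, 2 of 4 P3 Kir2.1, 1 of 4 P6 control and 3 of 4 P6 Kir2.1 pools. Its P6 signals were -6.09, -9.18, -9.53 and -9.58 in control and -3.11, -2.07, -5.11 and -10.42 in Kir2.1. Pool 4 of the Kir2.1 group was at background, as were 3 of the 4 control pools. Its mean difference over both ages was 2.99 (SE 1.26, adjusted p = 0.32). Pcdhb10 was detected in 3 of 4 P3 control pools and in 0 of 4 P3 Kir2.1 pools, with a difference of -2.52 (SE 1.49, adjusted p = 0.834) and overlapping signals. It was detected once more, in P6 Kir2.1 pool 4 at -2.84, and its interaction was 3.42 (SE 2.1, adjusted p = 0.603).

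Over the 19 genes tested, the Kir2.1 difference at P3 was positive in 8 and negative in 11, with 0 called, where 0.00949% of all features were called. Their median difference was -0.40 against -0.03 over all features, and 1 had an unadjusted p under 0.05 in limma (5.26% against 6.53% of all features). At P6, 9 were positive and 10 negative, with a median of -0.30 against -0.13, and 3 had an unadjusted p under 0.05 (15.8% against 17.5%). These shares were near those of all features. Groups did not overlap in 0 of the 19 genes at P3, where 6.8% of all features did so, and in 3 of 19 at P6, against 8.89%. The split of all calls at P6 depended on scaling, with 182 higher and 188 lower here and 253 higher and 106 lower in the deposited value table, which is scaled over all probes and moved the median of all features from -0.13 to 0.08. Pcdhb16 was at -6.16 there.

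**Figure D5:**
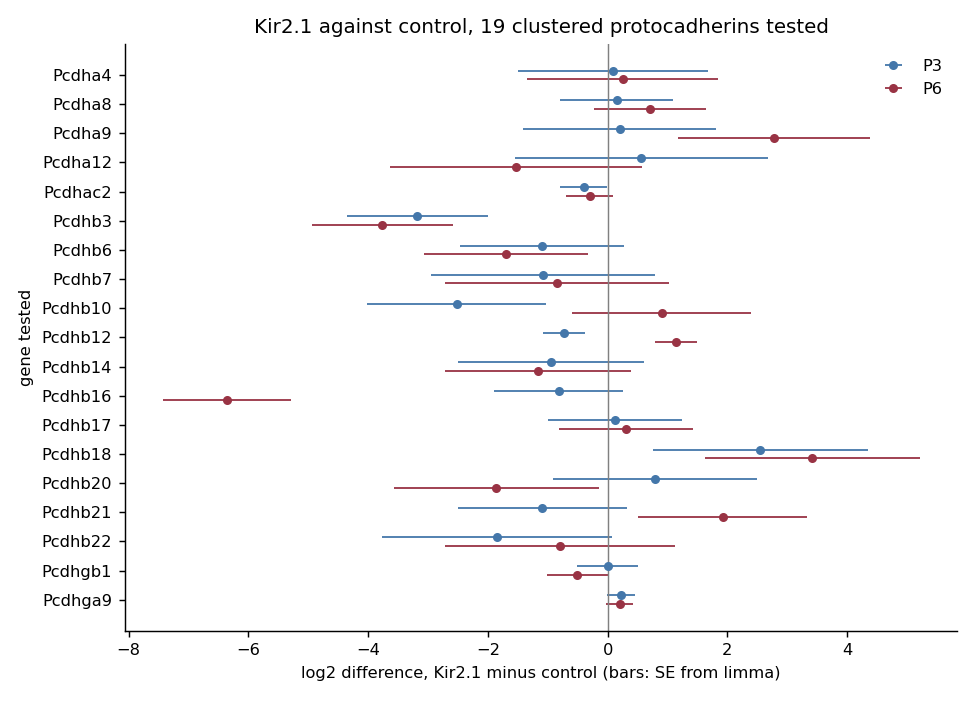
Log2 difference between Kir2.1 and control cells (horizontal axis, points) with its SE from limma (bars), for the 19 clustered protocadherins tested at P3 (blue) and P6 (red). Pcdhb16 at P6, at -6.36, is the 1 point past the threshold of 0.05, and most other bars reach or cross 0.

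Age was compared within control and within Kir2.1 cells, where it cannot be told apart from the slide. In control cells, 0 of the 19 genes passed the test, where 2.59% of all features did, and 3 had an unadjusted p under 0.05 (15.8% against 17.9% of all features). Pcdhb21 was detected in all 4 P3 control pools, at -3.97, -3.15, -4.01 and -5.18, and in none of the P6 control pools, at -10.30, -7.74, -9.57 and -9.62. The groups did not overlap, and the difference was -5.23 (SE 1.41, adjusted p = 0.0696), at least 10.8-fold lower by the same kind of bound. Its size depended on how background was treated. The difference was -1.37 (SE 0.53, adjusted p = 0.207) after the normexp correction and -3.43 (SE 1.03, adjusted p = 0.0991) with signals floored at background. Without P6 Kir2.1 pool 1, which enters through the shared estimate of the spread, it passed the test (adjusted p = 0.0382). In the other 27 of 28 alternatives it did not, with adjusted p up to 0.207. In Kir2.1 cells, Pcdhb21 was detected in 3 of 4 pools at P3 and 2 of 4 at P6.

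Pcdhb16 went the opposite way with age in control cells, from 2 of 4 pools at P3 to 4 of 4 at P6, by 3.41 (SE 1.07, adjusted p = 0.111). The P6 control pools all stood above the P3 control pools. With signals floored at background the difference was 2.74 and passed the test (adjusted p = 0.0399). In the other 27 of 28 alternatives it did not pass, with adjusted p up to 0.261. After the normexp correction the difference was 1.31 (SE 0.35, adjusted p = 0.0596). Marker sums of several cell types also lay apart between P3 and P6 control. They were 1.96 to 2.58 and 4.61 to 11.7 for interneurons, and 7.55 to 8.77 and 15.2 to 20.9 for microglia. For astrocytes they were 2.17 to 7.55 and 14.9 to 17.9, and for ensheathing cells 6.71 to 12.9 and 16.7 to 22.1. Mitral and tufted cell sums were lower at P6, at 17.3 to 22.2 and 11.5 to 16.7. The oligodendrocyte, vascular and olfactory sensory neuron sums overlapped. The part of these cells in the age differences of Pcdhb16 and Pcdhb21 was not tested. Pcdhb12 differed between P6 and P3 control cells by -1.02 (SE 0.35, adjusted p = 0.147), with overlapping groups. Non-overlapping groups were seen for 2 of the 19 genes, Pcdhb16 and Pcdhb21, against 12.7% of all features.

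In Kir2.1 cells, 0 of the 19 genes passed the test between the ages, where 0.878% of all features did, and 1 had an unadjusted p under 0.05 (5.26% against 15% of all features). The lowest p values were those of Pcdhb12 (0.85, SE 0.35, adjusted p = 0.273), Pcdhb16 (-2.13, SE 1.07, adjusted p = 0.373) and Pcdhga9 (0.41, SE 0.23, adjusted p = 0.424). Pcdhb12 and Pcdhga9 were higher in every P6 pool than in any P3 pool, and Pcdhb3 was lower, though nearly all of its signals there were at background. These 3 of 19 genes stand against 10.5% of all features without overlap. For the interaction of age and Kir2.1, 0 of the 19 were called, where 0.0902% of all features were, and 2 had an unadjusted p under 0.05, Pcdhb12 and Pcdhb16 (10.5% of the genes, against 2251 of 21070 features).

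Genes that act on protocadherin promoters were read from a separate list of CTCF, cohesin subunits and silencing factors, 17 of which were tested. In limma, 0 of 17 passed in any of the 3 Kir2.1 comparisons. Ctcf was detected in 16 of 16 pools, at -3.13 ± 0.49 in P3 control and -3.11 ± 1.08 in P6 control, and differed in Kir2.1 cells by 0.92 (SE 0.59, adjusted p = 0.847) at P3 and -0.32 (SE 0.59, adjusted p = 0.831) at P6. Smchd1, a chromatin protein that silences genes of these clusters, was also detected in all pools and differed by -0.74 (SE 0.36, adjusted p = 0.795) and -0.08 (SE 0.36, adjusted p = 0.941). The lowest p at P6 was that of the corepressor Trim28 (0.90, SE 0.34, adjusted p = 0.185), followed by the cohesin regulator Pds5b (1.78, SE 0.84, adjusted p = 0.291). The cohesin subunit Rad21 was at -0.73 (SE 0.44, adjusted p = 0.835) at P3.

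Of 23 tested genes for binding partners, signalling and processing of the proteins, 1 passed at P6 and 0 at P3 or over both ages. At P6, 182 of 21070 features were called higher. The 1 gene that passed was Ret, a receptor tyrosine kinase, which rose in P6 Kir2.1 cells by 4.38 (SE 0.85, adjusted p = 0.0238). The call was lost without P6 control pool 1, P6 Kir2.1 pool 1 or P6 Kir2.1 pool 4, in the P6 arrays alone and after the normexp correction, with adjusted p up to 0.215. Ptk2b, a kinase inhibited by protocadherin intracellular domains, was at -1.81 (SE 0.47, adjusted p = 0.0652). At P3 the lowest p were those of the kinase substrate Marcks (-0.55, SE 0.25, adjusted p = 0.744) and Adam10, a protease that cleaves gamma protocadherins (-0.41, SE 0.31, adjusted p = 0.884).

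Protocadherins outside the clusters are encoded singly, and 10 were tested. Over both ages, 3 were higher and 7 lower in Kir2.1 cells, with a median difference of -0.49. The 1 called was Pcdh7, where 89 of 21070 features were called higher. Pcdh7 rose over both ages by 2.78 (SE 0.52, adjusted p = 0.0325), at 3.49 (adjusted p = 0.214) at P3 and 2.07 (adjusted p = 0.168) at P6. Of 28 alternatives, 10 ended that call, with adjusted p up to 0.346 after the normexp correction, where the difference was 0.36. Among these were the fits without P3 control pool 1, 3 or 4, P3 Kir2.1 pool 2 or 3, P6 control pool 4 and P6 Kir2.1 pool 1 or 2. At P6, the p of Pcdh17 was lower than that of Pcdh7, and Pcdh17 was at -1.28 (SE 0.37, adjusted p = 0.0871).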

How the data were processed

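The samples, groups and amplification are as described above. Per the file headers and the submitters' processing notes, arrays were 1-colour Agilent arrays read with Agilent Feature Extraction 10.7.3.1, and the deposited spot intensity used was the background-subtracted processed signal. The deposited value table holds the same linear signal relative to each array's 75th percentile, since the quotient of both was 0.9992 to 1.0000 on all arrays; it is not centred on genes, and its column medians lay between 0.0337 and 0.12.

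Control spots and outlier spots were left out (83 of 55681 probes), spots of a probe were averaged, and log2 signals were scaled by the 75th percentile over the 12103 probes well above background on all 16 arrays. Probes were named by RefSeq accession in the table of assembly GRCm38.p6, which gave 26546 probes a symbol and 29052 none. A feature was tested where a probe was well above background on at least 4 arrays, the brightest such probe standing for its gene, which gave 12035 named genes and 9035 unnamed probes. limma 3.58.1 (R 4.3.3) was fitted on all 16 arrays, with 12 residual degrees of freedom, and checked on simulated data. The simulated noise was normally spread with no background floor. The check therefore does not cover signals that fall either at background or well above it. Same-numbered pools did not deviate together (correlations of -0.028 to 0.031), so the numbers were not used as pairs. Intensities give no depth; the number of arrays limits the precision. Alternatives covered background correction, scaling, filters, floor, weights, variance model, probe choice, single ages, the replicate number and each pool left out. The normexp alternative used the median spot signal with an offset of 50.

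The clustered protocadherins and the gene lists were chosen with earlier results of these data known. Genes were named where called, otherwise by the 3 lowest p of a comparison, with the C-type genes and those detected on all arrays; of the lists, called genes or the 2 lowest p in a Kir2.1 comparison, Ctcf and Smchd1, and for marker lists called genes and a defining marker.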

Additional observations from a re-analysis of the deposited data

Results flagged for a closer look

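A pool was set apart where its gap to the nearest of the 3 other pools of its group was large relative to the range of the group (above Dixon's critical value for 4 values). Of 92 groups of 4 values examined, 14 were marked in this way, and chance marks about 1 in 20 groups of normally spread values. That rate does not hold for small counts, where 3 equal values always mark the other one, or for signals that fall either at background or well above it. The causes were not tested.

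Of these, 10 were signals of single genes, 9 of them a bright pool among pools near background. In P3 Kir2.1, pool 3 stood out for Pcdha4 at -4.11 (the others lay between -9.59 and -9.10) and for Pcdhb14 at -4.25 (-9.40 to -9.05). Pool 4 of that group stood out for Pcdhb3 at -5.34 (-9.53 to -9.00) and for Pcdhb22 at -3.04 (-9.51 to -8.89). In P6 control, Pcdha9 stood out in pool 2 at -5.16 (-9.47 to -8.97) and Pcdhb18 in pool 1 at -6.09 (-9.58 to -9.18). Pcdhb6 was the reverse case, with pool 4 of P6 control low at -7.32 against -4.10 to -3.57. In P6 Kir2.1, pool 4 stood out for Pcdhb10 at -2.84 (-10.04 to -9.82) and Pcdhb14 at -5.19 (-9.84 to -9.48), and pool 3 for Pcdha12 at -2.45 (-9.95 to -9.12).

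The other 4 were counts of genes detected. P6 Kir2.1 pool 4 held 17 clustered protocadherins against 10 in each other pool of its group. For the alpha cluster, P3 Kir2.1 pool 2 held 2 genes against 4 and P6 control pool 3 held 3 against 4. For the gamma cluster, P3 Kir2.1 pool 1 held 2 genes against 1.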

How the results depend on the processing

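For 19 named results on single genes, 533 alternatives gave a value: 510 kept the direction and the side of the threshold, 20 ended a call, 3 made one and 0 reversed a direction. All 20 lost calls were that of Pcdhb16 over both ages. The count of clustered protocadherins called over both ages went from 1 to 0 with array weights, the deposited value table, quantile normalization, no filter and a filter of 1 array, and lay between 0 and 1 with each pool left out. For P6 against P3 in control it went from 0 to 1 with signals floored at background, and lay between 0 and 1 with each pool left out. The causes were not tested. The weaker filters also had a larger number of features to adjust for. By the scanner's looser flag (positive and significant), the median number of genes detected in a pool was 18 in place of 12.5. With the replicate block, 1 gene was called at P6 and 1 over both ages, as without it. Over all features, calls at P6 numbered 370, against 20 in the P6 arrays alone, 182 with the replicate block, 158 with array weights, 193 without a filter and 705 after the normexp correction. Of the calls at P6, 245 were higher and 460 lower after the normexp correction, and 269 of 376 were higher with scaling over all probes. A filter of 8 arrays left 12 clustered protocadherins to test. Signals at background have no order, which limits every gene detected in part of the pools.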
